A study of Homo sapiens with 9 samples.

Results

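The genes described here encode 7 proteins of the nucleolus, the nuclear body in which ribosomes are made: NCL, NPM1, FBL, NOP56, DKC1, POLR1B and UBTF. Their members in the data are the peaks of 5 deposited lists that lie, with at least 1 base, within 10 kb of the gene's start site on the hg19 build. There were 24 such peaks out of 52875 in the 5 lists together. Of these, 10 came from the GFP list of tagged 786-O cells, 10 from the MYC list of parental 786-O cells, 2 from the GFP list of parental 786-O cells, 2 from the GFP list of tagged A498 cells and 0 from the GFP list of parental A498 cells.

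The lists come from ChIP-seq, in which protein fixed to DNA is precipitated with an antibody and the recovered DNA is sequenced. The cells were 786-O and A498, established lines from human clear cell renal cell carcinoma. Tagged cells carried eGFP knocked in at ZNF395, a zinc finger transcription factor, and were precipitated with an antibody to GFP. Parental cells carried no knock-in and were precipitated with the same GFP antibody, which measures what that antibody recovers without the tag, and MYC was precipitated from parental 786-O cells. No other treatment of the cells is named in the labels, which do not say whether the tagged cells were a single clone or a pool. Some label fields disagree with the titles: the cell line field of the A498 samples reads 786-O, and the target field of the MYC sample, whose antibody is to MYC, reads P300. A498 and MYC below mean the libraries with those titles. Each group was 1 library: no difference has a replicate check and no test across replicates was possible.

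Ribosome synthesis starts when RNA polymerase I transcribes ribosomal DNA, with UBTF, an HMG box protein, bound along those genes. Small nucleolar RNAs then guide the modification of the transcript inside protein complexes that hold FBL and NOP56, or DKC1. NCL and NPM1 are abundant nucleolar proteins that act in processing and assembly. MYC is known to raise ribosome biogenesis in growing and malignant cells, and genes of this group are textbook MYC targets.

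Sequences just upstream of 3 of the start sites are given as examples of different combinations of peaks. NOP56 had a peak over its start site in both tagged lists and in the MYC list, NCL had the highest MYC peak of the 7 genes, and FBL had MYC peaks only. All 7 genes were found by symbol in the RefSeq promoter table, which is on GRCh38.p14 and holds 250 bases before and 50 bases after a start. The 250 bases before the start are printed 5′ to 3′ on the gene's own strand. Capitals mark GGGCGG (the GC box) and CACGCG (a variant E-box), on either strand, including where copies overlap. The windows are chr20:2652382-2652631 (plus strand) for NOP56, chr2:231464485-231464734 (minus strand) for NCL and chr19:39846380-39846629 (minus strand) for FBL, on GRCh38.p14, and no position in them was compared with the hg19 positions of the peaks.
NOP56: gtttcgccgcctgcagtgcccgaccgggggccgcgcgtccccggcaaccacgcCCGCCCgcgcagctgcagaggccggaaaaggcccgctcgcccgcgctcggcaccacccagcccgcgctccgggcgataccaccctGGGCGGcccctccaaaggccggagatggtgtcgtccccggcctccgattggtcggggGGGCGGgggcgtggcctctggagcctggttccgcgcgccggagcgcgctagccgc
NCL: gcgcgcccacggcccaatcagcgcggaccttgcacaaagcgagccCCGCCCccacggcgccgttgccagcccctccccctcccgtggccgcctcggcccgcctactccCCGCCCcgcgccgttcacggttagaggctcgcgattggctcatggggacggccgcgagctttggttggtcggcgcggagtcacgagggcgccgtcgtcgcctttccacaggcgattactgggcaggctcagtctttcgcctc
FBL: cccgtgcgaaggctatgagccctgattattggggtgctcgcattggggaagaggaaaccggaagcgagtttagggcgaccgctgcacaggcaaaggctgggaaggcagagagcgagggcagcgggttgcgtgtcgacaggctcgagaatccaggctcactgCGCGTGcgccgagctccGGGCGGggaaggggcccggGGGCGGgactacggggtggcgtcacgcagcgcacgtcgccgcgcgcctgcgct

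All 3 sequences were rich in G and C, with 78.0% in NOP56, 72.0% in NCL and 68.8% in FBL, against a median of 58% over all promoters of the table. Over all promoters of the 7 genes the values ran from 46.4%, in a promoter of NPM1 and below that median, to 79.2% in a promoter of UBTF. GGGCGG was present in 6 of the 7 genes, all but NPM1, and in 48.3% of the 27305 genes of the table. CACGTG, the E-box that MYC binds with its partner MAX, was found in 1 of the 7 genes, FBL, where it starts at base 7 after the start of transcription, and in 8.77% of all genes. The variant CACGCG was present in NPM1, FBL and UBTF, and in 13.5% of all genes. CCGG was present in 6 of the 7, again all but NPM1, and in 65.3% of all genes. CACGTG and CCGG are their own reverse complements, each search covered both strands and the 300 bases around the start, and copies may overlap. NPM1, POLR1B and UBTF have more than 1 promoter in the table, and a gene, here and in the shares over all genes, was counted when any of its promoters held the motif. Among the other genes of ribosome biogenesis on a list of 32 drawn up for this report, 26 were in the table. Of those 26, 10 had CACGTG in a promoter, 9 had CACGCG, 14 had GGGCGG and 24 had CCGG. The peaks of those other genes were not analysed here. A match is a run of letters and not a measured binding site.

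MYC peaks were found at all 7 genes and tagged 786-O peaks at 6, while A498 and the parental controls had few. Tagged 786-O peaks were present at NCL, NPM1, NOP56, DKC1, POLR1B and UBTF, and FBL had none. Tagged A498 peaks were present at NOP56 and UBTF, parental 786-O peaks at NPM1, and parental A498 peaks at none of the 7. The lists differ in length: with every list limited to its 1563 highest peaks, MYC had a peak at 6 genes, tagged 786-O at 1, parental 786-O at 1 and tagged A498 at 0, and the count in tagged 786-O was then no higher than in parental 786-O. No share over all start sites was computed, for want of an hg19 annotation, so the 7 of 7 for MYC has no background and is a description. As a background for the GFP counts, windows of the same size were placed around the midpoints of all 20199 MYC peaks. A tagged 786-O peak lay within 10 kb in 76.0% of them, and in 91.8% of the highest 10% of MYC peaks. A tagged A498 peak did so in 27.4% and 44.1%, a parental 786-O peak in 16.8% and 28.2%, and a parental A498 peak in 2.95% and 4.16%. Set beside these shares, the counts at the 7 genes (6, 2, 1 and 0) are near the background and are not read as particular to them. The map of peaks by distance shows them all.

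**Figure D1:**
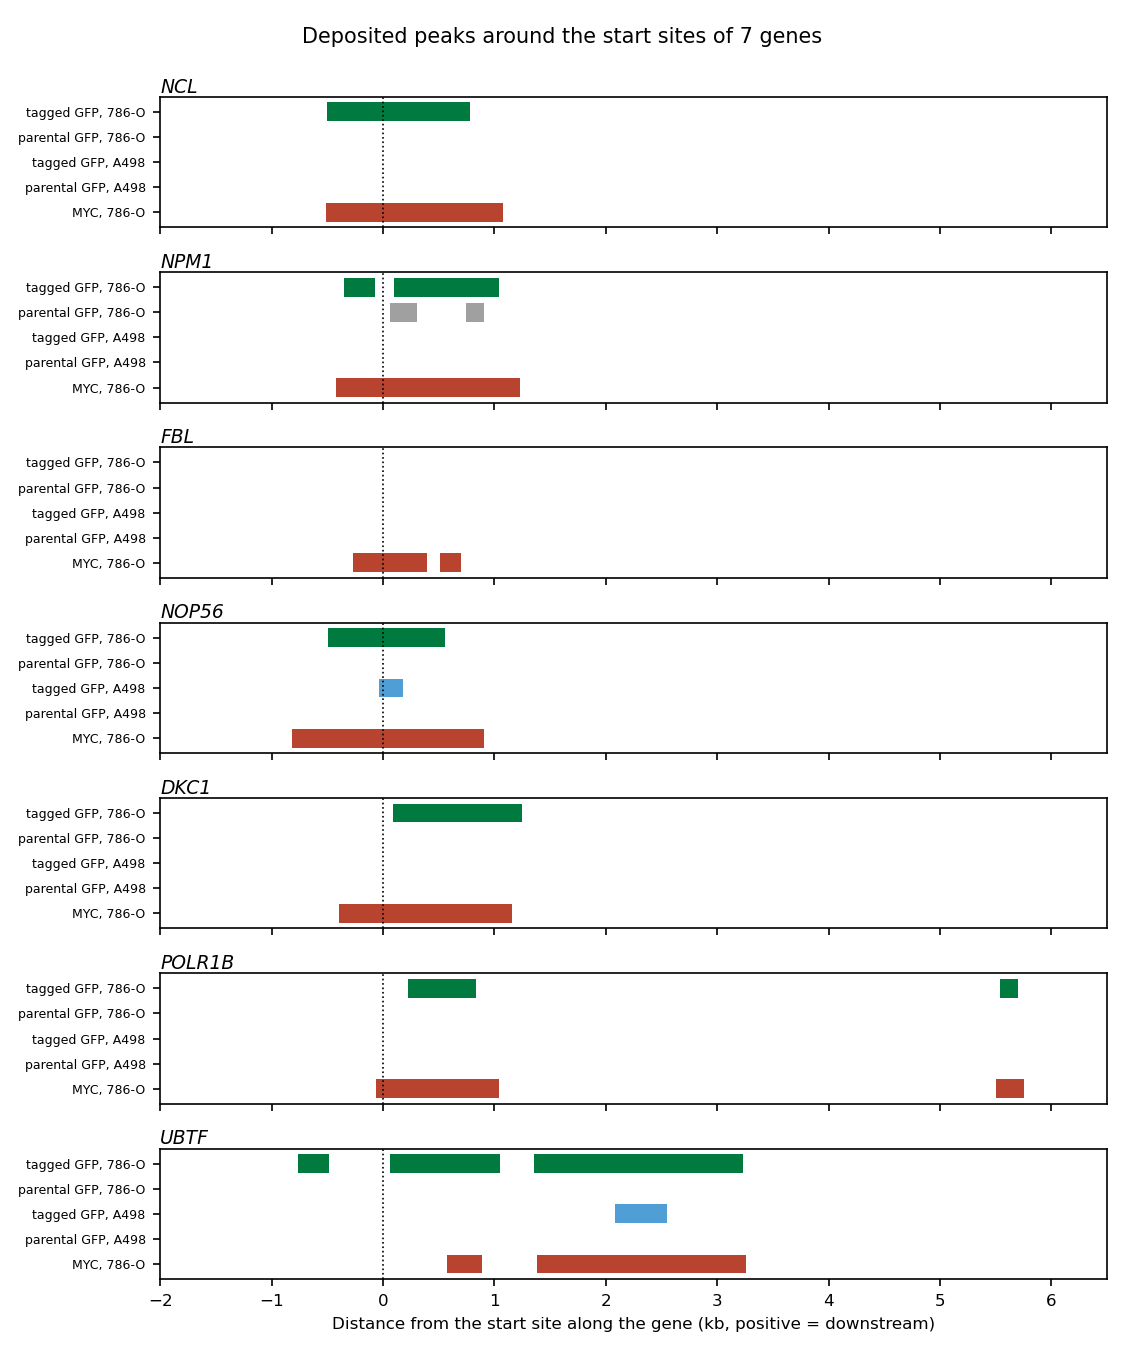
Peaks of the 5 deposited lists around the start sites of the 7 genes. The horizontal axis is the distance from the start site in kb along the gene (positive is downstream) and each bar is 1 peak, with 1 row per list; every one of the 24 peaks falls in the range drawn, FBL has bars only in the MYC row, and the 2 tagged A498 bars lie at NOP56 and UBTF.

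The authors give each peak a score, read here as -log10 of its p or q value, which orders peaks within a list and is not comparable between lists. A high place in a list is therefore described by the percentage of the list's own peaks with a lower score. By this measure the highest MYC peak of each gene stood above 87.4% to 99.9% of the MYC list, with a median of 95.8%, and 6 of the 7 were in its highest 10%. The highest tagged 786-O peaks stood above 66.6% to 96.7% of their list, with a median of 79.3%, and 2 of 6 were in its highest 10%. The tagged A498 peaks stood above 62.7% and 64.8% of theirs. Here the highest peak of a gene is set against all peaks of its list. The same was not computed for other start sites, so these places are a description and are not read as particular to the 7 genes.

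**Figure D2:**
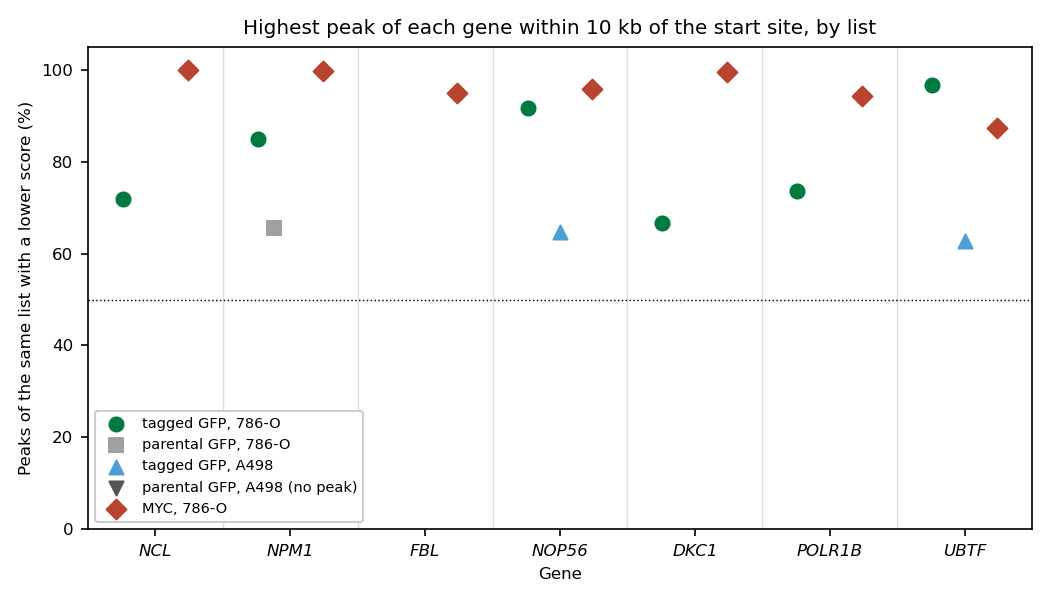
Highest peak of each gene in each list, plotted as the percentage of peaks of the same list with a lower score (vertical axis), by gene (horizontal axis), with 1 symbol per list and a dotted line at 50%. MYC symbols lie above the tagged 786-O symbols at NCL, NPM1, NOP56, DKC1 and POLR1B, and the order is turned at UBTF.

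NCL, which encodes nucleolin, an abundant RNA-binding protein of the nucleolus, had the highest MYC peak of the group and a much lower place in the tagged list. The hg19 start site of NCL is on chromosome 2 at 232329205, and the gene runs on the minus strand. Its MYC peak, at 232328125 to 232329714, had a score of 327 and rank 13 of 20199. It reached from -509 to 1080 bp, where negative distances are upstream of the start site. The tagged 786-O peak, at 232328422 to 232329711, had a score of 24.3 and rank 5620 of 20034. That peak lay wholly inside the MYC peak, from -506 to 783 bp, so that the upstream edges were 3 bp apart while the MYC peak went further into the gene. Neither parental list nor the tagged A498 list had a peak within 10 kb.

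NPM1, which encodes nucleophosmin, a nucleolar chaperone that takes part in ribosome assembly, was the gene at which parental cells also gave GFP peaks. Its start site is on chromosome 5 at 170814708, on the plus strand. The MYC peak, at 170814288 to 170815939, had a score of 290.1 and rank 36, and reached from -420 to 1231 bp. Tagged 786-O cells had a pair of peaks inside that span. The higher, at 170814802 to 170815746, had a score of 37.3 and rank 3018, and the lower, at 170814361 to 170814632, had a score of 14.4 and rank 9305. They lay on either side of the start site used here, from -347 to -76 bp and from 94 to 1038 bp, and left that site uncovered. The 2 RefSeq promoters of NPM1 on GRCh38.p14 were not compared with these positions.

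The parental 786-O peaks at NPM1 lay within or at the edge of the downstream tagged peak. The first, at 170814774 to 170815009, had a score of 8.72 and rank 1155 of 3361, and the other, at 170815450 to 170815618, had a score of 2.99 and rank 3136. The downstream tagged peak overlapped both, and the upstream one overlapped neither. GFP signal without the tag was thus listed under the stronger of the tagged peaks of this gene, and how much of that peak depends on the tag was not tested. Of the other lists, MYC shares its control library with parental 786-O. Of all parental 786-O peaks 76.2% overlapped a tagged 786-O peak and 60.5% a MYC peak, and both of the NPM1 peaks did so in each case. No A498 list had a peak near NPM1.

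FBL encodes fibrillarin, the methyltransferase of the complexes that carry box C/D small nucleolar RNAs, and was the gene of the 7 without any GFP peak. Its start site is on chromosome 19 at 40337054, on the minus strand. The higher MYC peak, at 40336655 to 40337326, had a score of 102.4 and rank 1000, and covered the start site from -272 to 399 bp. A lower MYC peak followed at 40336351 to 40336543, with a score of 4.93 and rank 18946, from 511 to 703 bp. With 95.04% of the MYC list below it, the higher peak is among the highest 10% of MYC peaks. Of those 2019 peaks 275 overlapped no tagged 786-O peak, and 86.4% did overlap one. With 1 library, a peak just under the authors' threshold at FBL cannot be told apart from no binding.

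NOP56, which encodes a core protein of the same box C/D complexes as fibrillarin, differed from FBL in both tagged lists. Its start site is on chromosome 20 at 2633178, on the plus strand. The MYC peak, at 2632357 to 2634084, had a score of 112 and rank 841, and the tagged 786-O peak, at 2632688 to 2633738, had a score of 52.1 and rank 1646. The tagged A498 peak was 212 bp wide, at 2633145 to 2633356, with a score of 7.17 and rank 2652 of 7718. The 3 peaks were nested. The A498 peak, from -33 to 178 bp, lay inside the tagged 786-O peak, from -490 to 560 bp, and that lay inside the MYC peak, from -821 to 906 bp. The midpoints of the tagged 786-O and MYC peaks were 7.5 bp apart, and no parental peak was near. The MYC peaks of FBL and NOP56 had close ranks (1000 and 841), while only NOP56 was listed with the GFP antibody.

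DKC1, which encodes dyskerin, the pseudouridine synthase of the box H/ACA complexes, had a high MYC peak and the lowest place among the highest tagged peaks. Its start site is on the X chromosome at 153991031, on the plus strand. The MYC peak, at 153990634 to 153992187, had a score of 234 and rank 103, and reached from -397 to 1156 bp. The tagged 786-O peak, at 153991124 to 153992281, had a score of 20.7 and rank 6676. It began 93 bp downstream of the start site and ended at 1250 bp, and its midpoint lay 292 bp further into the gene than that of the MYC peak. No other list had a peak within 10 kb.

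POLR1B, which encodes a core subunit of RNA polymerase I, had MYC and tagged peaks at 2 sites. Its start site is on chromosome 2 at 113299492, on the plus strand. At the start, the MYC peak at 113299433 to 113300537 had a score of 95.7 and rank 1135, and reached from -59 to 1045 bp. The tagged 786-O peak inside it, at 113299715 to 113300325, had a score of 25.6 and rank 5277, and lay from 223 to 833 bp. The other site was the farthest of all members from a start, more than 5 kb downstream. There the MYC peak, at 113304999 to 113305247, had a score of 17.3 and the tagged peak, at 113305027 to 113305191, a score of 6.80, with midpoints 14 bp apart. Both sites lacked peaks in the other 3 lists.

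UBTF, which encodes the upstream binding factor of ribosomal DNA, had the highest tagged peak and the lowest of the highest MYC peaks. Its start site is on chromosome 17 at 42298994, on the minus strand. The tagged 786-O peak at 42295762 to 42297643 had a score of 77.8 and rank 661, and the MYC peak at 42295734 to 42297612 had a score of 57.9 and rank 2553. These peaks were 1882 and 1879 bp wide, shared 1851 bp, and lay from 1351 to 3232 bp and from 1382 to 3260 bp downstream of the start. The tagged A498 peak, at 42296442 to 42296911, had a score of 6.85 and rank 2879, and its midpoint was 3.5 bp from that of the MYC peak. The highest site of UBTF in all 3 lists was therefore not at the start site used here. UBTF has 2 RefSeq promoters on GRCh38.p14, and their starts were not compared with the peaks. Whether this site lies at another start of UBTF was not tested.

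Nearer the start of UBTF the peaks were lower. A tagged 786-O peak at 42297945 to 42298929 had a score of 14.0 and lay from 65 to 1049 bp downstream of the start. It overlapped a MYC peak at 42298102 to 42298419 with a score of 20.3. A further tagged peak, at 42299483 to 42299753, lay upstream, from -759 to -489 bp, with a score of 7.49, and was the single tagged 786-O peak of the 10 with no MYC peak. No list had a peak over the UBTF start site used here.

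The position of peaks around the start is given here as a description, with no share over all start sites beside it. The MYC list covered the start site in 6 of 7, all but UBTF, and the tagged 786-O list in 2, NCL and NOP56. A tagged 786-O peak came within 250 bp of the start site in all 6 genes that had one. The midpoint of the highest peak lay downstream of the start in 7 of 7 genes for MYC, with a median of 379.5 bp, and in 6 of 6 for tagged 786-O, with a median of 547 bp. The highest tagged 786-O peaks of NPM1, DKC1 and POLR1B began between 93 and 223 bp downstream of the start where the MYC peak ran across it. All these positions refer to the start sites in the rule that defines the genes, and may differ for other starts. The RefSeq starts on GRCh38.p14, of which NPM1, POLR1B and UBTF have 2 each, were not compared with the peaks. The authors' files give peak edges and no summits, so these are positions of intervals and not of maximal signal.

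The widths of the peaks at the 7 genes ranged widely. The MYC peaks had a median width of 1329.5 bp, with a range of 193 to 1879 bp, against 425 bp over the whole list. The tagged 786-O peaks had a median of 965 bp, with a range of 165 to 1882 bp, against 393 bp. In each of these lists 7 of the 10 peaks were wider than the list's median, a count too small to set them apart from the 50% that lie above a median by definition. For scores, 9 of 10 MYC peaks were above the list median of 16.2 and 8 of 10 tagged 786-O peaks above the list median of 13.1. The same was not computed for other start sites and several peaks lie at the same gene, so these counts are a description.

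Of the 10 tagged 786-O peaks 9 overlapped a MYC peak, which is 90% (exact 95% interval 55.5 to 99.7), against 60.6% of all tagged 786-O peaks. Of the 10 MYC peaks 8 overlapped a tagged 786-O peak (80%, 44.4 to 97.5), against 60.9% of all MYC peaks. Both intervals contain the share of the whole list. With 10 peaks they are too wide to decide whether either share differs from its list, and no conclusion is drawn from them. These are Clopper-Pearson intervals for counting error alone, and they take peaks as independent although several lie at the same gene. Of the 9 overlapping tagged peaks 6 lay wholly inside their MYC peak, and the share of all pairs that did so was not computed. A different measure, the median share of a tagged peak's length inside the MYC peak, was 80.8% over all 12812 overlapping pairs.

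**Figure D3:**
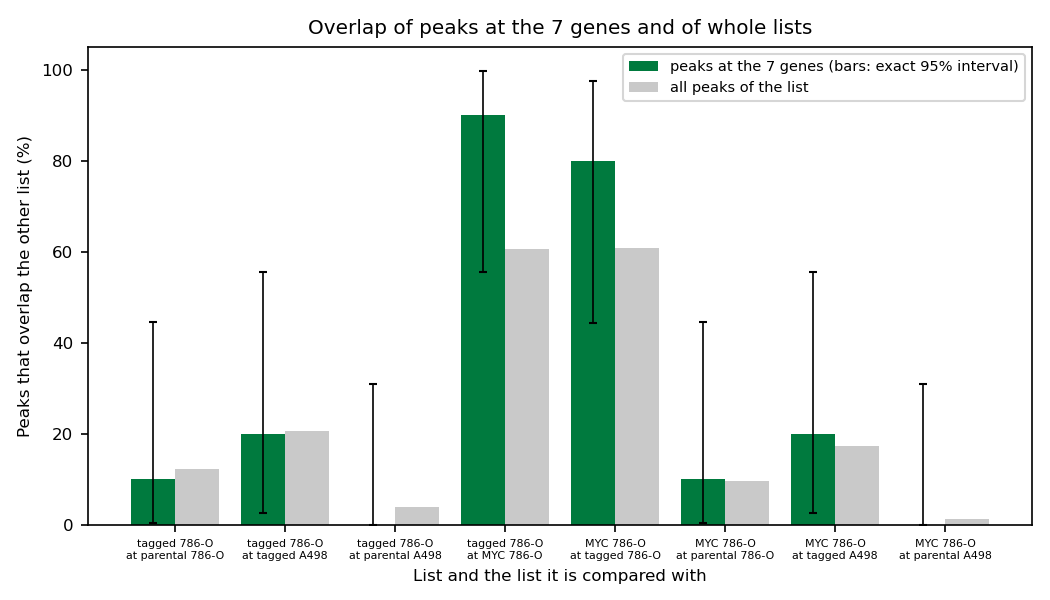
Share of peaks (vertical axis, %) that overlap a peak of another list by at least 1 bp, for the 10 tagged 786-O and the 10 MYC peaks at the 7 genes (green, with exact 95% intervals) and for all peaks of the same list (grey), by pair of lists (horizontal axis). Every grey bar has its top within the interval of the green bar beside it.

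The order of the genes differed between MYC and ZNF395-eGFP in 786-O. By MYC rank the order was NCL, NPM1, DKC1, NOP56, FBL, POLR1B and UBTF, and by the rank of the highest tagged peak it was UBTF, NOP56, NPM1, POLR1B, NCL and DKC1. UBTF was thus last in the first order and first in the other. Its last place holds for the 10 kb window. A MYC peak outside that window, 21061 bp downstream of the UBTF start, had rank 834, ahead of NOP56 at 841. Over all MYC peaks in the highest 10% that overlapped a tagged peak, the tagged peak stood above a median of 75.2% of its list (quartiles 55.7% and 90.04%). Of the members with such a MYC peak, NCL (71.9%), DKC1 (66.6%) and POLR1B (73.7%) were below that median and NPM1 (84.9%) and NOP56 (91.8%) above it. In the highest 1% of MYC peaks, which holds NCL, NPM1 and DKC1, the corresponding median was 83.0% (quartiles 65.9% and 93.4%), and these 3 genes lay within the quartiles. With 1 library for each antibody, the spread of these ranks between repeats of the experiment is unknown.

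Between the lines, the genes with a tagged A498 peak were those highest in tagged 786-O. UBTF and NOP56 were the 2 genes in the highest 10% of tagged 786-O peaks, and both had an overlapping tagged A498 peak. NPM1, POLR1B, NCL and DKC1, whose highest tagged 786-O peaks stood between 66.6% and 84.9%, had none. Across the whole tagged 786-O list 73.5% of the highest 10% of peaks overlapped a tagged A498 peak, and 27.7% of the peaks with between 50% and 90% of the list below them. Of the 10 tagged 786-O peaks at the 7 genes 2 overlapped a tagged A498 peak (20%, 2.52 to 55.6), against 20.5% of the list. Of the 10 MYC peaks 2 did so, against 17.2% of the MYC list. In the other direction both tagged A498 peaks overlapped a tagged 786-O and a MYC peak, as did 56.6% and 46.8% of all tagged A498 peaks. The A498 list was also shorter, with 7718 peaks against 20034, and the part of this in the absence of A498 peaks was not tested.

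Parental GFP signal was listed at few of these sites. Of the 10 tagged 786-O peaks 1, the downstream peak of NPM1, overlapped a parental 786-O peak (10%, 0.253 to 44.5), against 12.2% of the list. No parental A498 peak overlapped any of the 10 (upper limit 30.8%), against 3.93% of the list. Each of the 6 genes with a tagged 786-O peak had at least 1 that overlapped no parental 786-O peak, and at NPM1 this was the lower of the pair. The corresponding share of other genes was not computed, so this count is a description and is not read as particular to these genes. Neither of the 2 tagged A498 peaks overlapped a parental peak of either line, against 6.93% of the tagged A498 list for parental A498 and 15.4% for parental 786-O. The MYC peak of NPM1 was the 1 of 10 MYC peaks that overlapped a parental 786-O peak, against 9.60% of the MYC list, and none of the 10 overlapped a parental A498 peak, against 1.23%.

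The 10 kb limit left out several sites nearby. The farthest members were the POLR1B peaks at 5507 and 5535 bp from the start. The nearest peaks outside were a parental 786-O peak 10498 bp downstream of the NCL start (score 7.95), and a site of UBTF about 11 kb downstream of its start. That UBTF site was listed in 4 of the 5 lists, as a MYC peak at 42287728 to 42288218 (score 34.2), a tagged 786-O peak (score 26.2), a tagged A498 peak (score 18.5) and a parental 786-O peak (score 14.9). Tagged 786-O peaks with scores of 12.5 and 7.09 lay 11625 bp downstream of the NOP56 start and 11792 bp upstream of the DKC1 start. For FBL the nearest GFP peak of any list was a tagged A498 peak 12675 bp downstream of its start (score 7.72), with no overlapping peak in the other lists.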

How the data were processed

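ChIP-seq peak lists of 5 libraries were used, of 9 samples in all; the 4 inputs have no list and were not used here. The submitters' processing notes name BWA, MACS2 and the hg19 build, without role, version or setting. Peak names in the deposited files give 1 control library for each list. The deposited score was read as −log10 of a p or q value, because the lowest scores lie just above 2, which is where a limit of 0.01 falls; the sources used here do not say which of them it is. No list holds read counts, so the depth behind a peak is unknown.

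Groups came from the titles. Start sites came from the rule that defines the genes, and strands from RefSeq on GRCh38.p14. No hg19 annotation was used, so peaks were not assigned to exons or introns, and the other genes of ribosome biogenesis were not placed. Peaks were shared when they overlapped by at least 1 bp. Positions are 1-based. All 7 genes and every peak within 10 kb are named. The genes, lists and parts of lists were chosen with earlier results of these data known. Scripts ran in Python 3.11.15 with pandas 2.3.3, numpy 2.4.6, matplotlib 3.10.9 and scipy 1.17.1. The overlap rule was tested on 2000 simulated peaks, with 0 wrong, and on 27752 deposited peaks against bedtools 2.31.1, with 0 differences. Alternatives were other windows, overlap rules, score limits, list lengths, peak widths and parental lists.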

Additional observations from a re-analysis of the deposited data

How the results depend on the processing

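With 1 library per group, every count rests on a single library. Of 78 values under the alternatives, 68 stayed within 1.5 times the reported count or within the interval of the reported percentage, and 10 did not. Limiting all lists to their 1563 highest peaks left a tagged 786-O peak at 1 gene in place of 6 and a tagged A498 peak at 0 in place of 2. A window of 2 kb, which leaves out the UBTF peak, left 1 gene (NOP56) with a tagged A498 peak and 1 with a tagged A498 peak free of parental overlap. A window of 25 kb gave 3 genes with a parental 786-O peak in place of 1 and a median place of 69.7% in place of 63.7% for tagged A498. Under a 50% reciprocal overlap 0 genes in place of 2 had a peak common to both tagged lists, since the A498 peaks are narrow ones inside wide 786-O peaks. Genes with a tagged 786-O peak at the start were 6 within 250 bp in place of 2 over the site, and those with a parental 786-O peak were 1 within 250 bp, and 1 by midpoints within 500 bp, in place of 0. MYC counts and the 6 genes where tagged 786-O and MYC peaks overlapped were within 1.5 times under every alternative run on them. No paired analysis was possible because each group is 1 library.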

Other observations

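A site about 21 kb downstream of the UBTF start, outside the window that defines the members, was higher in the MYC list than any UBTF peak inside it. The MYC peak, on chromosome 17 at 42276670 to 42277933, had a score of 113 and rank 834, and the tagged 786-O peak, at 42276303 to 42277961, had a score of 67.4 and rank 964. Tagged A498 cells had a pair of peaks there, at 42277422 to 42278011 (score 18.3, rank 570) and at 42276487 to 42277101 (score 8.15, rank 2102). Both parental lists had none. In RefSeq on GRCh38.p14 the coding gene next to UBTF on that side is ATXN7L3, which encodes a subunit of a histone deubiquitinating module; the peaks were not assigned to it.

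In the same annotation 3 of the 7 genes hold small nucleolar RNA genes within their span, with 3 in NCL, 5 in NOP56 and 2 in DKC1. The share of all genes that hold them was not computed, so this is a description. Each of the 3 had 1 MYC and 1 tagged 786-O peak within 10 kb of its start, overlapping each other and no parental peak. Overlapping MYC and tagged 786-O peaks without a parental overlap were also present at POLR1B and UBTF, which hold no such genes. The 2 parental 786-O peaks downstream of the NCL start, 10498 and 12219 bp away with scores of 7.95 and 3.20, overlapped no peak of any other list.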
